A study of Mus musculus with 9 samples.

Results

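The transcripts described here encode 4 chaperones and cofactors of the endoplasmic reticulum (ER), Hspa5, Hsp90b1, Creld2 and Sdf2l1, the transcription factor Xbp1, and 5 genes of the integrated stress response, Atf4, Ddit3, Trib3, Chac1 and Asns. These 10 genes were picked by name as a set of unfolded protein and ATF4 response genes, and each was matched by its Ensembl identifier. All 10 were among the 31685 genes of the expression table and all 10 passed the filter that left 13056 genes for testing, an FPKM (reads scaled to transcript length and library total) of at least 1 in at least 3 mice. Chac1 passed it through the control group: TAI mouse 3, at 1.17 FPKM, was the single irradiated mouse above 1.

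RNA came from the jejunum of wild-type C57BL/6J mice, adult males, with 3 mice per group. The control group received no treatment, the TAI group received 12 Gy of total abdominal X-irradiation with PBS as vehicle, and the TAI/IVIg group received the same irradiation and 500 mg/kg of human intravenous immunoglobulin (IVIg) by vein within an hour, to be repeated at intervals until the animals were killed. Jejunum was taken on day 3, all libraries carry a single batch label, and totals ran from 16284531 to 18244739 reads with overlapping ranges between groups. The labels name jejunal epithelial tissue as the source, but the smooth muscle markers summed to between 134 and 847 FPKM per mouse, so muscle RNA was present. The separate labels give distinct mice, and the p-values measure the spread between mice within groups, pooled over the 3 groups of 3 mice.

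The ER folds secreted and membrane proteins with chaperones such as HSPA5 (also called BiP) and HSP90B1 (GRP94). When unfolded proteins accumulate there, the sensors IRE1, PERK and ATF6 signal to the nucleus: IRE1 removes an intron from Xbp1 mRNA, ATF6 is cleaved into a transcription factor, and PERK phosphorylates the initiation factor eIF2alpha. Phosphorylation of eIF2alpha, which other kinases carry out in amino acid shortage, viral infection or haem deficiency, slows translation in general but raises translation of Atf4 mRNA, and this common arm is the integrated stress response. In the intestine the pathway is best known from secretory lineages, and Xbp1 is needed for Paneth cells and plasma cells. Neither Xbp1 splicing nor Atf4 translation can be read from gene-level values.

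Irradiation was followed on day 3 by lower levels of all 4 ER chaperone and cofactor transcripts and all 5 integrated stress response transcripts, with Xbp1 alone of the 10 not passing the test. The 9 genes called lower in TAI against control compare with 26.1% of all tested genes called lower (limma on log2(FPKM + 1), Benjamini-Hochberg adjusted p under 0.05 over all 13056 genes). Over all tested genes the log2 fold change had a median of -0.23, against -1.83 for the 4 chaperones and cofactors and -1.31 for the 5 stress response genes. No TAI mouse reached the lowest control mouse for any of these 9 genes, a separation found in 38.0% of all tested genes. In bulk tissue a lower level cannot be told apart from fewer cells of the type that carries the transcript.

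**Figure D1:**
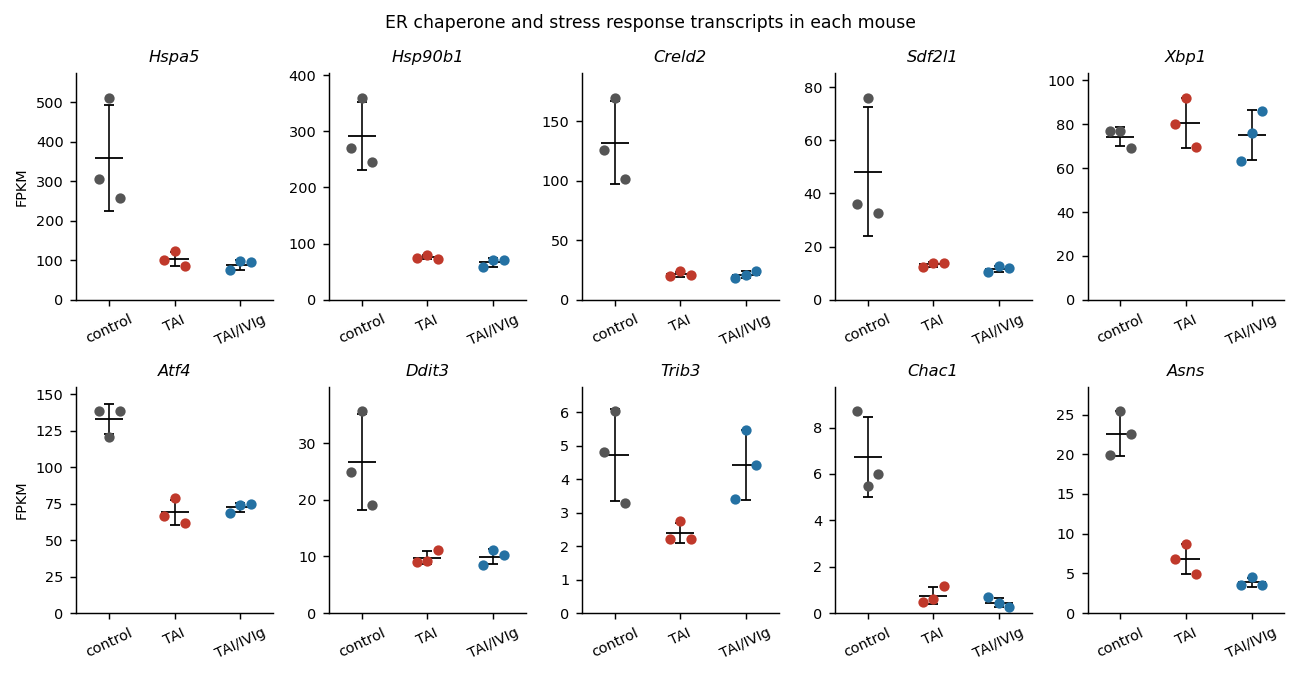
FPKM of each of the 10 transcripts (vertical axis, a scale per gene starting at 0) in the 3 mice of each group, with points for mice, horizontal bars for group means and whiskers for SD. For 9 of the 10 genes all TAI mice lie below all control mice, as they do for 38.0% of all tested genes. Xbp1 overlaps between groups. For Trib3 the TAI/IVIg mice lie above the TAI mice, a difference that did not pass the test (limma adjusted p = 0.353).

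Hspa5 (ENSMUSG00000026864, chr2:34771970-34777547, plus strand, GRCm38), the main HSP70 chaperone of the ER lumen, was at 306, 513 and 258 FPKM in control mice 1, 2 and 3, at 100.1, 123 and 85.9 in the TAI mice, and at 74.6, 97.3 and 94.99 in the TAI/IVIg mice. Control mouse 2 stood well above the other controls, and both irradiated groups lay below every control mouse. Its log2 fold change in TAI against control was -1.74 (SE 0.26, limma adjusted p = 0.00202), and -1.46 without control mouse 2.

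Hsp90b1 (ENSMUSG00000020048, chr10:86690209-86705509, minus strand), the HSP90 chaperone of the ER, was at 271, 360 and 245 FPKM in the control mice, 74.3, 80.6 and 73.5 in the TAI mice and 57.6, 71.1 and 71.4 in the TAI/IVIg mice. The irradiated mice were close to each other, with an SD of 3.92 FPKM in the TAI group against 60.5 in the controls. The log2 fold change was -1.91 (SE 0.17, limma adjusted p = 0.000315). Its span overlaps that of Gm15344 on the same strand, which reached at most 6.97 FPKM, and that of 1810014B01Rik on the opposite strand, at most 1.26.

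The ER cofactor Creld2 (ENSMUSG00000023272, chr15:88819646-88826683, plus strand), a protein with disulphide isomerase-like activity, showed the largest fall of the 10 genes on this scale. Its level was 126, 170 and 101 FPKM in the control mice, 20.25, 24.05 and 20.5 in the TAI mice and 18.3, 20.85 and 24.4 in the TAI/IVIg mice. The TAI mean was 16.3% of the control mean, a log2 fold change of -2.53 (SE 0.20, limma adjusted p = 0.000227).

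Sdf2l1 (ENSMUSG00000022769, chr16:17130138-17132383, minus strand), a partner of the HSP40 cochaperones that serve HSPA5, was at 36.0, 76.1 and 32.5 FPKM in the control mice, 12.3, 14.0 and 13.95 in the TAI mice and 10.3, 12.75 and 11.8 in the TAI/IVIg mice. Control mouse 2 again was the highest, at more than the sum of the other controls. The log2 fold change of -1.67 (SE 0.28, limma adjusted p = 0.00329) became -1.29 without that mouse and still passed.

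The windows from 250 bases before to 50 after the RefSeq transcript start (GRCm38.p6) were searched on both strands for the ER stress element (ERSE), CCAAT followed after 9 bases by CCACG, at which NF-Y and ATF6 bind in the promoters of chaperone genes. The windows of 3 of the 10 genes, Hspa5, Hsp90b1 and Creld2, held it, against 0.119% of all 32851 windows. The sites are shown because these are among the chaperone genes that fell. Each is read on the strand that carries CCAAT, with 5 flanking bases and the fixed letters of the motif in capitals, and positions count back from -1, the last base before the start.
Hspa5, -65 to -47, chr2:34772020-34772048, plus strand: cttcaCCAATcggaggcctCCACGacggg
Hsp90b1, -212 to -194, chr10:86705633-86705661, minus strand: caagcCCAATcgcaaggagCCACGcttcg
Hsp90b1, -107 to -89, chr10:86705528-86705556, plus strand: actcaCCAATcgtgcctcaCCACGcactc
Creld2, -126 to -108, chr15:88819515-88819543, minus strand: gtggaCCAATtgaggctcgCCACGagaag

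The Hsp90b1 window held the element on both strands, at separate places. Sdf2l1, whose transcript fell as well, had no full ERSE in this window but 3 matches to its CCACG end, all on the opposite strand, a 5-letter motif found in 32.8% of all windows (a match within an ERSE counts here too). The 250 bases before the start of Creld2 are shown with the ERSE in capitals, and those of Sdf2l1 with CCACG, which reads CGTGG on the gene's strand, in capitals. The Xbp1 stretch, which held none of the motifs searched, is shown beside them as that of the transcript that did not pass the test. The 5 integrated stress response genes, all called lower, had no ERSE either. The part of these motifs in the changes was not tested.
Creld2, chr15:88819396-88819645, plus strand: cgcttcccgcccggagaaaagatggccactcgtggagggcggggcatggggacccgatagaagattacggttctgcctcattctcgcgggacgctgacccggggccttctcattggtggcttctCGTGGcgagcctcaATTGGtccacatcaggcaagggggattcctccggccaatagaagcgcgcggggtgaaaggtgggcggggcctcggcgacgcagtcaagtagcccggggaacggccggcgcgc
Sdf2l1, chr16:17132384-17132633, minus strand: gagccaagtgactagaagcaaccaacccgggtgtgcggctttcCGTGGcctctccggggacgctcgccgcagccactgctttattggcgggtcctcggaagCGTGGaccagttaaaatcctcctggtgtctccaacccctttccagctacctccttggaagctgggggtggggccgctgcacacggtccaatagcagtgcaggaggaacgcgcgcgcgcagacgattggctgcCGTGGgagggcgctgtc
Xbp1, chr11:5520391-5520640, plus strand: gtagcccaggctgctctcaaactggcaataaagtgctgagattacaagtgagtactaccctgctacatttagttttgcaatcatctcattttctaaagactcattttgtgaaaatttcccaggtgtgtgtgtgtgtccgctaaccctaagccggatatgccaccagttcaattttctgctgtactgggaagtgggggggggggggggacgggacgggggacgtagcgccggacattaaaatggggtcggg

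Across the genome 37 gene symbols had an ERSE in such a window, and 15 of the 9231 tested genes that could be matched to a window were among them, the 3 members included. In TAI against control 11 of the 15 were called lower (73.3%, beside 27.4% of the 9231) and 0 higher, with a median log2 fold change of -0.89. Among those lower were the foldase Pdia6 (-2.23, SE 0.19, limma adjusted p = 0.000297) and the lectin chaperones Calr (-1.71, SE 0.19, limma adjusted p = 0.000757) and Canx (-1.08, SE 0.21, limma adjusted p = 0.00572), the last 2 chosen after their values were seen. The CCACG end alone gave 29.0% called lower. No chance test was run on these shares, and genes with an ERSE overlap with the chaperone lists.

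**Figure D2:**
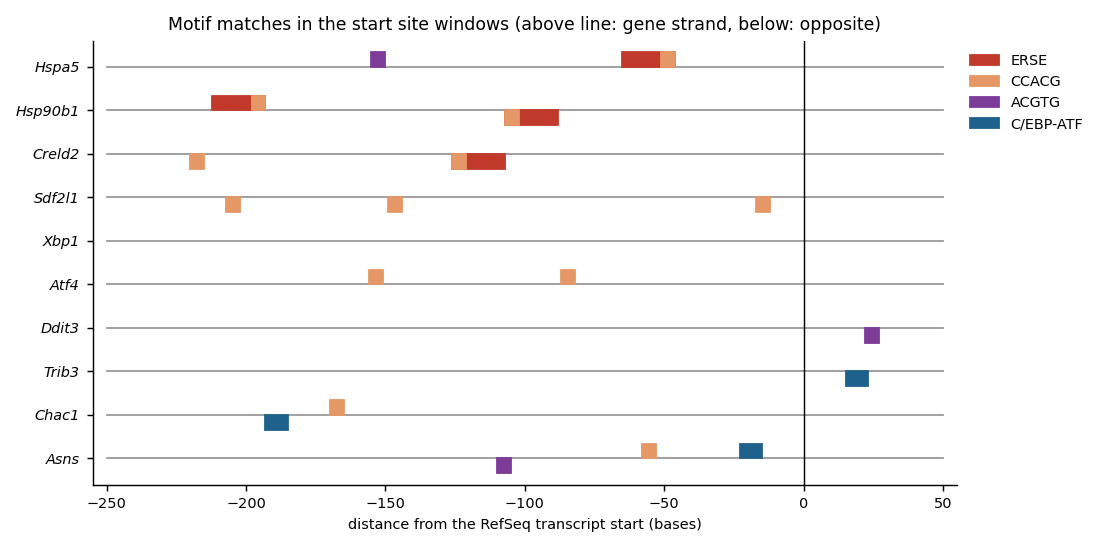
Matches to the ERSE, its CCACG end, ACGTG and the C/EBP-ATF composite in the window of each of the 10 genes (horizontal axis, bases from the RefSeq start), drawn above the line on the gene's strand and below it on the opposite strand. Full ERSE matches stand in Hspa5, Hsp90b1 and Creld2, and C/EBP-ATF matches in Trib3, Chac1 and Asns.

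Xbp1 (ENSMUSG00000020484, chr11:5520659-5525893, plus strand) encodes the transcription factor that IRE1 activates by splicing and that drives secretory and chaperone genes. Its level was 76.8, 77.1 and 69.2 FPKM in the control mice, 80.4, 92.2 and 69.5 in the TAI mice and 63.2, 76.1 and 86.0 in the TAI/IVIg mice. The 3 groups overlapped. The log2 fold change in TAI against control was 0.11 (95% interval -0.24 to 0.46, limma adjusted p = 0.609), an interval that excludes a fall of the size seen for the chaperones.

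Because both values come from the same library, the ratio of a chaperone to Xbp1 does not depend on how libraries were scaled. Hspa5 was at 3.99, 6.65 and 3.72 times the Xbp1 FPKM in the control mice, at 1.25, 1.33 and 1.24 times in the TAI mice and at 1.18, 1.28 and 1.10 times in the TAI/IVIg mice. Hsp90b1 went from 3.53 to 4.67 times Xbp1 in the controls to between 0.83 and 1.06 times in the 6 irradiated mice. For Creld2 the ratio lay between 1.46 and 2.20 in the controls and between 0.252 and 0.295 in the irradiated mice. With lengths scaled out, Hspa5 was the most abundant of the 10 transcripts in all 9 mice, while Xbp1 ranked 5 of 10 in every control mouse and 2 or 3 in every irradiated mouse. Within the controls the order of Atf4 and Creld2 differed between mice, and these neighbours overlapped (121 to 139 and 101 to 170 FPKM).

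**Figure D3:**
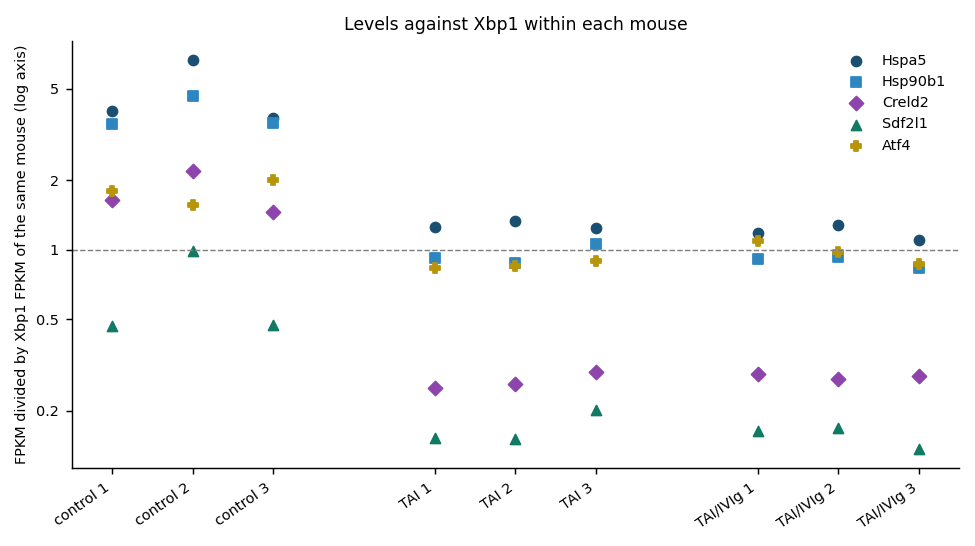
FPKM of Hspa5, Hsp90b1, Creld2, Sdf2l1 and Atf4 divided by the Xbp1 FPKM of the same mouse (vertical log axis) for each of the 9 mice. In the control mice Hspa5 lies at 3.72 to 6.65 and in the irradiated mice at 1.10 to 1.33, and the 4 other genes shift the same way.

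Atf4 (ENSMUSG00000042406, chr15:80255184-80257541, plus strand), the central transcription factor of the integrated stress response, was at 139, 121 and 139 FPKM in the control mice, 66.7, 78.7 and 61.95 in the TAI mice and 68.8, 74.2 and 74.5 in the TAI/IVIg mice. The groups differed with little spread within each: the TAI mean was 52.1% of the control mean, a log2 fold change of -0.93 (SE 0.13, limma adjusted p = 0.0017).

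Ddit3 (ENSMUSG00000025408, chr10:127290774-127296288, plus strand) encodes CHOP, a pro-apoptotic factor induced through ATF4. It was at 24.9, 35.7 and 19.0 FPKM in the control mice, 9.10, 9.14 and 11.2 in the TAI mice and 8.57, 11.1 and 10.3 in the TAI/IVIg mice. The log2 fold change was -1.31 (SE 0.21, limma adjusted p = 0.00299). Its annotated span meets those of Gm4189 and Mars on the opposite strand. A further Ddit3 entry, which the expression table lacks, overlaps it on the same strand. The strand setting of the counting is not given in the sources used here, so reads from the shared stretches cannot be assigned with certainty.

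Chac1 (ENSMUSG00000027313, chr2:119351229-119354381, plus strand), a glutathione-degrading enzyme and ATF4 target, was at 8.72, 5.50 and 6.00 FPKM in the control mice, from 159 to 248 reads. The TAI mice were at 0.50, 0.60 and 1.17 FPKM, from 14 to 35 reads, and the TAI/IVIg mice at 0.68, 0.43 and 0.25 FPKM, from 7 to 20 reads. The TAI mean was 11.2% of the control mean, the lowest share of the 10 genes. On the log2(FPKM + 1) scale, which understates changes of low genes, the fold change was -2.14 (SE 0.21, limma adjusted p = 0.000487), and with a pseudocount of 0.1 it was -3.05.

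Asns (ENSMUSG00000029752, chr6:7675169-7693254, minus strand), asparagine synthetase, a classical ATF4 target in amino acid shortage, was at 19.9, 25.5 and 22.6 FPKM in the control mice, 6.76, 8.67 and 4.91 in the TAI mice and 3.58, 4.54 and 3.58 in the TAI/IVIg mice. The groups fell into 3 separate ranges. The log2 fold change in TAI against control was -1.63 (SE 0.19, limma adjusted p = 0.00094).

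Trib3 (ENSMUSG00000032715, chr2:152337422-152344032, minus strand), a pseudokinase induced by ATF4 and CHOP that limits their activity, had the smallest change of those called. It was at 4.82, 6.04 and 3.29 FPKM in the control mice, 2.22, 2.75 and 2.22 in the TAI mice and 3.40, 5.48 and 4.41 in the TAI/IVIg mice. The TAI mice lay below both other groups, and the TAI/IVIg mice lay within the control range. The log2 fold change in TAI against control was -0.73 (SE 0.21, limma adjusted p = 0.0277). The call depended on the scaling and the mice: with library medians set equal the log2 fold change was -0.44 (limma adjusted p = 0.167), and without control mouse 2 it was -0.56 (limma adjusted p = 0.0953).

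The same windows were searched for the C/EBP-ATF composite TGATGNAA (N being any base), the core of the element through which ATF4 acts. Those of Chac1, Asns and Trib3 held a match, 3 of the 10 genes beside 3.97% of all windows. The sites are shown as the shared sequence of these ATF4 targets, read on the motif's strand with 11 flanking bases and the match in capitals.
Chac1, -193 to -186, chr2:119351038-119351067, minus strand: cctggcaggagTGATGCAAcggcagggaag
Asns, -23 to -16, chr6:7693214-7693243, minus strand: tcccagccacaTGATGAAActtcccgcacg
Trib3, 15 to 22 after the start, chr2:152344028-152344057, plus strand: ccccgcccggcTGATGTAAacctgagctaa

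Among all 256 tested genes with such a match, 23.4% were called lower in TAI against control, beside 27.4% of the tested genes with a window. Atf4 and Ddit3 had no composite in their windows. The motif ACGTG, found in 19.6% of all windows, stood in those of Hspa5, Ddit3 and Asns. Genes with it were called lower in 30.5% of cases.

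**Figure D4:**
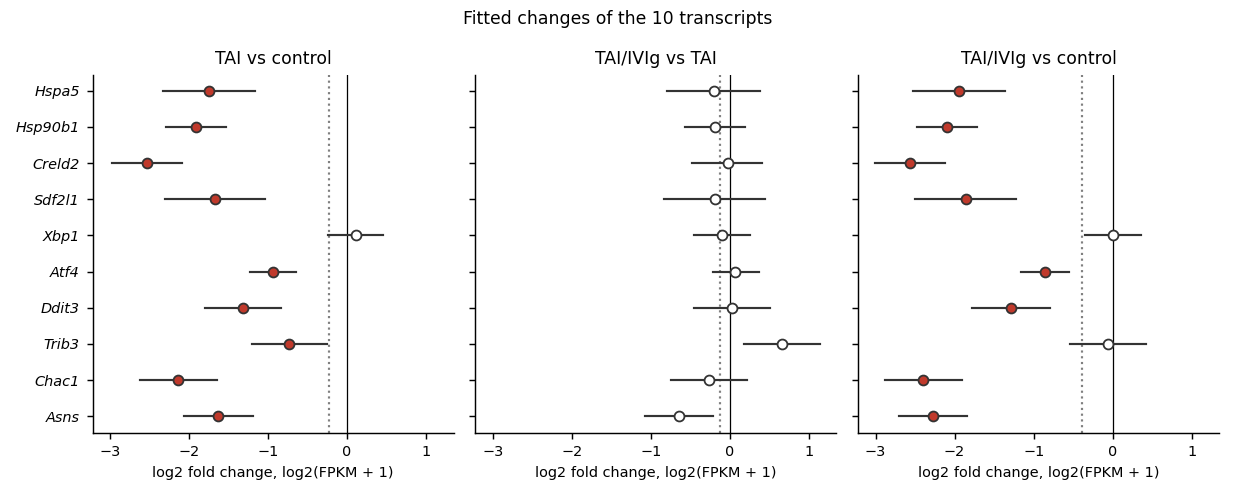
Log2 fold change of each of the 10 genes (points) with its 95% interval (lines) in the 3 comparisons, filled where the adjusted p was under 0.05, with the median of all tested genes as a dotted line. The intervals of 9 genes lie below 0 in TAI vs control, those of 8 in TAI/IVIg vs control, and no gene is filled in TAI/IVIg vs TAI.

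Immunoglobulin treatment after irradiation was not followed by a change that passed the test for any of the 10 genes. In TAI/IVIg against TAI 0 of 13056 genes (0.0%) had a limma adjusted p under 0.05, 1680 (12.9%) had an unadjusted p under 0.05, and limma voom on recovered reads also called 0. The log2 fold changes of the 4 chaperones and cofactors lay between -0.20 and -0.03, with Hspa5 at -0.20 (95% interval -0.79 to 0.38). Setting the library medians equal turned these 4 to between 0.00 and 0.17. Atf4 was at 0.07 (95% interval -0.22 to 0.37), Ddit3 at 0.02 (-0.46 to 0.51), Xbp1 at -0.10 (-0.46 to 0.25) and Chac1 at -0.26 (-0.75 to 0.22). The widest interval of the 10 was that of Sdf2l1, from -0.83 to 0.44, so changes of that size were not excluded. The fit pools the spread of all 9 mice, so these widths also hold that of the controls. For Sdf2l1 the SD was 24.2 FPKM in the controls, 0.973 in the TAI mice and 1.24 in the TAI/IVIg mice. For Hspa5 it was 135, 18.5 and 12.5 FPKM.

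Trib3 and Asns stood apart from the rest in this comparison, in opposite directions. Every TAI/IVIg mouse exceeded every TAI mouse for Trib3, with a log2 fold change of 0.66 (95% interval 0.18 to 1.14, limma adjusted p = 0.353), and such a separation upwards was found in 3.09% of all tested genes. For Asns the ranges were apart in the other direction (-0.64, 95% interval -1.08 to -0.21, limma adjusted p = 0.353), a separation downwards found in 16.1% of all tested genes. Hsp90b1 was also lower in each TAI/IVIg mouse than in each TAI mouse, at -0.19 (SE 0.17, limma adjusted p = 0.606). Over all alternatives the Trib3 value ran from 0.53 to 1.05 and the Asns value from -0.83 to -0.44, and none passed the adjusted threshold. Markers of other tissue layers and cell types moved between the same groups: Paneth cell markers summed to 3749 to 8511 FPKM in the TAI mice and 1009 to 3345 in the TAI/IVIg mice, goblet cell markers to 3581 to 4675 and 2047 to 3502, and smooth muscle markers, whose ranges overlapped, to 592 to 847 and 134 to 611. Of these lists 9 of 10, 9 of 9 and 7 of 8 tested markers were lower at an unadjusted p under 0.05, with median log2 fold changes of -2.66, -0.97 and -1.06, and 0 had a limma adjusted p under 0.05. Their part in the Trib3 and Asns values was not tested.

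Against the controls, the TAI/IVIg group showed 8 of the 10 genes lower, beside 37.4% of all tested genes, a comparison that shares its control mice with the one above. The log2 fold changes of the chaperones and cofactors were -1.95 for Hspa5 (SE 0.26), -2.10 for Hsp90b1 (SE 0.17), -2.56 for Creld2 (SE 0.20) and -1.86 for Sdf2l1 (SE 0.28), with limma adjusted p from 0.000131 to 0.00139. Asns was at -2.27 (SE 0.19, limma adjusted p = 0.000153), its TAI/IVIg mean being 17.2% of the control mean, and Chac1 at -2.40 (SE 0.21, limma adjusted p = 0.000187). Ddit3 was at -1.29 (SE 0.21, limma adjusted p = 0.0021) and Atf4 at -0.86 (SE 0.13, limma adjusted p = 0.00148). The call for Atf4 was lost with library medians set equal (-0.37, limma adjusted p = 0.112) and with voom on recovered reads at median-ratio library sizes (-0.39, limma adjusted p = 0.0822). Trib3, at -0.06 (95% interval -0.54 to 0.42), and Xbp1, at 0.00 (-0.35 to 0.36), were not called. With library medians set equal they stood at 0.43 and 0.50, neither past the threshold.

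The median of all tested genes was itself shifted, to -0.23 in TAI and -0.39 in TAI/IVIg against control. Setting the library medians equal moved it to 0.05 and 0.10 and changed the split of called genes in TAI against control from 1150 higher and 3411 lower to 2159 higher and 1823 lower. Relative to the median of all tested genes, the TAI fold changes were -1.51 for Hspa5, -2.30 for Creld2, -0.70 for Atf4, -0.49 for Trib3 and 0.34 for Xbp1. Under each of the alternative scalings the 4 chaperones and cofactors, Atf4, Ddit3, Chac1 and Asns stayed called lower in TAI against control.

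Of 29 other ER chaperones and foldases, all tested, 24 fell in TAI against control and 0 rose, with a median log2 fold change of -1.02. The largest falls were of the disulphide isomerases Pdia6 (-2.23, from 87.3 to 17.7 FPKM) and Pdia4 (-2.07, SE 0.23, limma adjusted p = 0.000777) and of Manf (-1.97, SE 0.22, limma adjusted p = 0.00073), a secreted ER stress protein. The 5 not called were Dnajb9 (-0.78), Ero1lb (-0.57), Cnpy2 (-0.30), Creld1 (-0.27) and Sdf2 (-0.11), the last 2 being the paralogs of Creld2 and Sdf2l1, all 5 named after their values were seen. Of the translocon and signal peptide processing genes, which bring proteins into the ER, 22 of 25 tested fell and 0 rose (median -1.08), led by the oligosaccharyltransferase subunits Rpn1 (-1.65) and Ddost (-1.61) and the translocon-associated Ssr1 (-1.55). ER-associated degradation, which removes misfolded proteins, had 12 of 20 lower and 0 higher (median -0.58), led by the segregase Vcp (-1.41), Edem2 (-1.09) and Selenos (-1.09). With library medians set equal the counts lower were 19, 15 and 6 in these 3 lists, all with 0 higher.

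The sensors and regulators of the pathway did not move as a block. Among 16 tested, 2 were higher and 3 lower, with a median of -0.20, near that of all tested genes. The 2 that rose were the ER-bound transcription factors Creb3l2 (1.80, SE 0.16, limma adjusted p = 0.000347), from 5.54 to 21.7 FPKM, and Creb3l3 (1.70, SE 0.19, limma adjusted p = 0.000777), from 83.3 to 267 FPKM, the latter known as a lipid metabolism regulator of liver and gut. Those that fell were Eif2s1, which encodes eIF2alpha (-0.91, limma adjusted p = 0.0185), Atf6b (-0.85, limma adjusted p = 0.0051) and the protease gene Mbtps2 (-0.43, limma adjusted p = 0.0381). The Mbtps2 call was lost with library medians set equal (-0.15, limma adjusted p = 0.308). The sensors themselves were not called, with Atf6 at -0.09, Ern1 (IRE1alpha) at -0.32 and Eif2ak3 (PERK) at 0.08. In TAI/IVIg against control 2 were higher and 5 lower, Creb3l1 (-1.12, SE 0.25, limma adjusted p = 0.00724) and Ern2 (-1.0, SE 0.24, limma adjusted p = 0.01), the goblet cell IRE1beta gene, joining those lower. Both calls were lost with library medians set equal (-0.63, limma adjusted p = 0.057, and -0.51, limma adjusted p = 0.119), where 4 were higher and 2 lower.

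Other ATF4 and CHOP targets and stress factors were mixed, unlike the 5 members. Of 28 listed genes 23 were tested, 2 were higher and 4 lower in TAI against control, and the median was -0.03. Sesn2, a stress protein that is also a p53 target (0.93, SE 0.17, limma adjusted p = 0.00477), and Gdf15, a secreted stress cytokine likewise induced by p53 (0.81, SE 0.20, limma adjusted p = 0.0159), rose. Cth, the cystathionine-cleaving enzyme (-1.93, SE 0.19, limma adjusted p = 0.000487), the factor Atf5 (-1.68, SE 0.20, limma adjusted p = 0.000952) and the amino acid transporters Slc7a5 (-1.31, limma adjusted p = 0.0115) and Slc7a1 (-1.08) fell. With library medians set equal 7 were higher and 4 lower, so the count of rises in this list depends on the scaling.

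ATF4 is also known to regulate genes of amino acid synthesis and tRNA charging. Of 8 tested genes of serine, glycine, proline and one-carbon synthesis 5 were lower and 0 higher (median -1.24), or 4 lower with library medians set equal, and the largest falls were those of Mthfd2 (-1.89, SE 0.27, limma adjusted p = 0.00177), Psat1 (-1.59) and Shmt2 (-1.53). Of 20 cytoplasmic aminoacyl-tRNA synthetases, the enzymes that charge tRNAs with amino acids, 17 were lower and 0 higher (median -1.04), led by Nars (-1.58), Mars (-1.39) and Farsb (-1.34), and the count of 17 was the same with library medians set equal. Of 19 cytosolic and mitochondrial chaperones 14 were lower and 1 higher (median -1.13), with the mitochondrial Hspd1 (-2.41, SE 0.41, limma adjusted p = 0.00356), Hspe1 (-2.11) and Hspa9 (-1.82) falling most and the heat shock cochaperone Dnajb1 rising (0.86, SE 0.29, limma adjusted p = 0.0441).

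**Figure D5:**
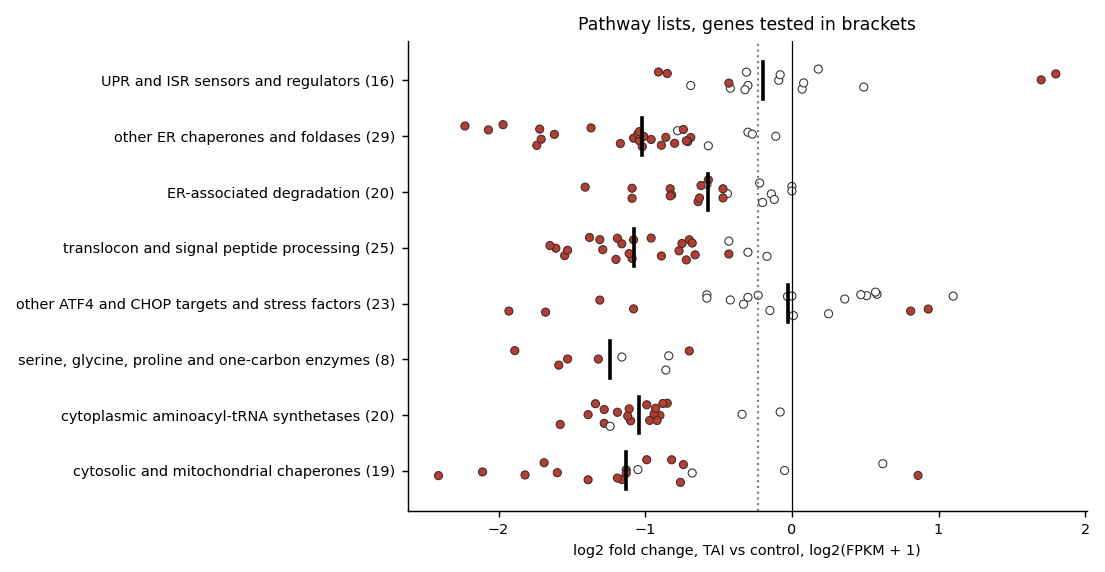
Log2 fold change in TAI vs control (horizontal axis) of every tested gene of 8 pathway lists, filled where the adjusted p was under 0.05, with list medians as black bars and the median of all tested genes as a dotted line. The lists of ER chaperones, translocon genes, tRNA synthetases and other chaperones have medians of -1.02 to -1.13, while sensors and other ATF4 targets have medians of -0.20 and -0.03.

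The counts were alike in TAI/IVIg against control, which shares the control mice: 24 of 29 other ER chaperones and foldases, 24 of 25 translocon genes, 12 of 20 degradation genes and 19 of 20 tRNA synthetases were lower, with 0 higher in each. With library medians set equal these became 17 lower and 1 higher, 15 lower and 0 higher, 3 lower and 2 higher (median -0.08), and 17 lower and 1 higher. Vars, not called in TAI, was among the synthetases (-2.21, SE 0.45, limma adjusted p = 0.00472). The remaining lists had 7 of 8 one-carbon genes lower, 16 of 19 cytosolic and mitochondrial chaperones lower, and 6 lower and 1 higher of 23 other ATF4 and CHOP targets. With library medians set equal these were 6 lower and 0 higher, 11 lower and 1 higher, and 6 lower and 6 higher. Over all 13056 tested genes 4880 (37.4%) were lower and 1183 higher in this comparison. Equal library medians made this 1894 lower and 2880 higher.

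In TAI/IVIg against TAI 0 genes of the 8 lists were called. The smallest unadjusted p in each list belonged to Ern2 (-0.92), Dnajc10 (-0.43), Vcp (-0.37), Ddost (-0.34), Nupr1 (-1.01), Psat1 (-0.95), Wars (-0.95) and Trap1 (-0.61), all with negative fold changes and limma adjusted p from 0.353 to 0.428. Their medians ran from -0.52 for cytosolic and mitochondrial chaperones to 0.01 for ER-associated degradation, beside -0.13 for all tested genes.

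Several cell type markers moved between the same groups as the members. Cycling crypt cell markers fell in 9 of 9 tested genes in TAI against control (median -2.07). Of these, Ccnb1 and Cdk1 passed the filter through the control mice alone, with at most 0.422 and 0.722 FPKM in irradiated mice. Mki67 and Top2a also needed the control mice to pass. TAI mouse 2, at 1.05 and 1.45 FPKM, was their single irradiated mouse above 1. The filter removed Lgr5. It was at 0.583, 0.981 and 0.371 FPKM in the control mice and 0.523, 0.921 and 0.422 in the TAI mice. The 10 listed markers summed to 63.7 to 189 FPKM in the control mice. The sums were 24.5 to 33.4 in the TAI mice and 18.4 to 30.5 in the TAI/IVIg mice. Control mouse 2 had the highest crypt sum of the controls and also the highest Paneth cell sum (7708 FPKM). It had the highest Hspa5, Hsp90b1, Creld2, Sdf2l1, Ddit3, Trib3 and Asns as well, but was the lowest control for Atf4 and Chac1 (121 and 5.50 FPKM). Control mouse 1 had the lowest crypt sum and was second for Hspa5. Goblet cell and plasma cell sums were highest in control mice 1 and 3. Absorptive enterocyte markers rose in 7 of 10 genes (median 1.29), from sums of 14193 to 22614 FPKM in the controls to 31394 to 52118 in the TAI mice. Fabp2 was a large part of these sums, at 6932 to 11125 FPKM in the controls and 13342 to 26628 in the TAI mice. Sis went the other way without being called, at 257 to 510 FPKM in the controls and 129 to 196 in the TAI mice.

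Markers of the secretory cells that depend on the ER pathway gave unlike results by cell type in TAI against control. For plasma cells, a list that includes the member Xbp1, 1 of 12 tested markers was higher and 1 lower (median -0.41). The lower was Derl3, one of the genes with an ERSE (-0.82, limma adjusted p = 0.00909). The higher was Prdm1, at 3.98 to 5.44 FPKM in the controls and 13.1 to 17.4 in the TAI mice. The list summed to 2260 to 2613 FPKM in the controls, 1515 to 2343 in the TAI mice and 1555 to 2244 in the TAI/IVIg mice. For Paneth cells 0 of 10 were called (3563 to 7708 and 3749 to 8511 FPKM), with a median log2 fold change of 0.70. Reg3g was a large part of some of these sums, at 1390 to 4090 FPKM in the controls and 1040 to 2172 in the TAI mice. Lyz1 was at 269, 1108 and 252 FPKM in the controls and 476, 1240 and 528 in the TAI mice. For goblet cells 3 were higher and 1 lower of 9 (2317 to 3108 and 3581 to 4675 FPKM). The goblet marker that fell was Agr2, itself an ER disulphide isomerase (-1.74), while Muc2, the main mucin, rose (0.86). Enteroendocrine markers summed to 112 to 145 FPKM in all groups, with 1 higher and 2 lower of 8, so the sum hides opposite changes. Chga was at 33.1 to 38.7 FPKM in the controls and 8.7 to 12.0 in the TAI mice. Pcsk1 was at 0.959 to 1.29 FPKM in the controls and 2.51 to 3.11 in the TAI mice. Smooth muscle had 0 of 8 called. Macrophage and neutrophil markers had 2 higher and 1 lower of 9, with sums of 73.2 to 339 FPKM over all mice. Pancreatic acinar markers, 8 of 12 found in the table, which would mark stray pancreas, a tissue very rich in ER chaperones, summed to at most 2.95 FPKM in any mouse, with Cpa1 and Prss2 at or near 0. The part of these cell types in the members' falls was not tested.

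The profiles of Hspa5 and Asns over the 9 mice were compared with those of all tested genes outside the set, by the mean absolute difference after each was centred and divided by its SD. The 5 most like Hspa5 were the cargo receptor gene Tmed10 (0.07 SD), the pseudogene Gm10177, Arpin, Gm3336 and Lactb2 (0.12 SD), where the median over all tested genes was 0.78 SD. Hsp90b1 and Sdf2l1, at 0.13 SD, and Creld2, at 0.17 SD, were nearly as close to Hspa5, Trib3 was at 0.81 SD and Xbp1 at 1.14 SD. The 5 most like Asns were Pmpca (0.05 SD), a mitochondrial processing protease subunit, Acer3, the ER membrane protein gene Ckap4, the cysteinyl-tRNA synthetase gene Cars and the pseudogene Gm12251 (0.10 SD), with a median over all tested genes of 0.72 SD. The likeness rests on the control against irradiated difference, which a large share of genes has. Pseudogene counts can hold reads of their parent genes.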

How the data were processed

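Total RNA of 9 jejunal samples was extracted with TRIzol and sequenced from mRNA libraries. Values are FPKM as the authors deposited them, unpooled, and each of the 9 columns was used (0 left out). The submitters' processing notes name FastQC, Trimmomatic, STAR, featureCounts, DESeq2 and mm10/GRCm38, without versions. At GENCODE M21 exon lengths (GRCm38), 96.6% of the 31685 genes gave whole reads in every mouse (tolerance 0.01 read), which gave the library totals. Depth limits the low values: Chac1 rests on 7 to 35 reads in irradiated mice.

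The sample labels gave groups and replicate numbers. Group terms were fitted to log2(FPKM + 1) of all 9 mice in limma 3.58.1 (R 4.3.3, trended empirical Bayes), for the 13056 genes that reached an FPKM of 1 in 3 or more mice, with Benjamini-Hochberg adjustment. The 3 comparisons share groups. Same-numbered control and TAI mice deviated together from their group means (r of 0.241 to 0.308), unlike TAI/IVIg mice (-0.296 to 0.201). Control and TAI mice of unlike numbers reached at most 0.146, but the highest r of all, 0.408, joined control mouse 3 and TAI/IVIg mouse 2. The sources used here give the replicate numbers no meaning, so no pairing was assumed and the replicate block was kept as an alternative. In simulated reads for TAI against control (13503 genes tested), 57 of 100 genes changed 2-fold and 87 of 100 changed 4-fold were called, all with the right sign, and 12 unchanged genes. These reads were drawn from control means and spread, without the overall shift seen in the data. The changed genes left out low ones, so the shares called need not hold for the real comparison.

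The members and gene lists were chosen with earlier results of these data known. Genes are named as members, as the up to 3 largest called rises and falls of each pathway list in TAI against control, or in TAI/IVIg against control where the call or sign differed, as the smallest p of a list where none was called, or as the 5 nearest profiles. Slc7a1, Ern2 in TAI/IVIg against control, the uncalled chaperones and sensors, Calr and Canx fall outside this rule. So do Agr2, Muc2, Cpa1, Prss2 and the other single cell type markers given. All were chosen after their values were seen. Alternatives were no filter or a minimum mean FPKM of 5, a pseudocount of 0.1, quantile normalization or equal library medians, a replicate block, fits of only the 6 mice compared, limma voom on recovered reads, and each mouse left out. Promoter windows were from RefSeq (GRCm38.p6), with all 10 genes matched, and 9231 of the 13056 tested genes (70.7%) matched by symbol or, for 110, by a RefSeq synonym. Printed stretches lie before both the RefSeq and GENCODE starts, except the short motif sites. Protein sequences were not used here.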

Additional observations from a re-analysis of the deposited data

How the results depend on the processing

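The number of the 10 genes called was 7 to 9 in TAI against control (9 in the reported fit), 0 throughout in TAI/IVIg against TAI and 7 or 8 in TAI/IVIg against control. A minimum mean FPKM of 5 removed Trib3 and Chac1 from the test. With each mouse left out in turn the counts were 8 to 9, 0 and 8. Over all tested genes the leave-one-out counts ran from 2343 (without TAI mouse 1) to 4902 in TAI against control, with 2614 without control mouse 2 and 2761 without control mouse 3, stayed at 0 in TAI/IVIg against TAI, and ran from 4285 to 6056 in TAI/IVIg against control. Other counts that moved were 4 (no filter) and 3 (replicate block) in TAI/IVIg against TAI, and 3381 (mean FPKM of at least 5) and 4011 (replicate block in a fit of the 6 mice compared, chosen after seeing the data) in TAI/IVIg against control. The replicate block left the member counts at 9, 0 and 8 and changed the call of no member.

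Trib3 in TAI against control missed the threshold without a filter (-0.73), with medians equal (-0.44), quantile normalization (-0.49), voom at median-ratio library sizes (-0.62), and without control mouse 1 (-0.70), control mouse 2 (-0.56), TAI mouse 1 (-0.69) or TAI mouse 3 (-0.69). The cause was not tested. The values whose sign turned were not called under any alternative. In TAI/IVIg against TAI, medians set equal gave 0.00 for Hspa5, 0.01 for Hsp90b1, 0.17 for Creld2, 0.01 for Sdf2l1 and 0.10 for Xbp1. Creld2 was also at 0.04 with quantile normalization, 0.14 with voom at median-ratio sizes, and Xbp1 at 0.08 with that voom fit. With single mice left out Creld2 ran from -0.14 to 0.06, Xbp1 from -0.21 to 0.01 and Ddit3 from -0.05 to 0.12. In TAI/IVIg against control Trib3 turned to 0.43 (medians equal), 0.41 (quantile), 0.42 (voom, median-ratio), and with single mice left out Trib3 ran from -0.26 to 0.10 and Xbp1 from -0.10 to 0.12.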
